A study of Mus musculus with 4 samples.

Results

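The 3 SoxF transcription factors Sox7, Sox17 and Sox18, and 7 genes for proteins of the endothelial cell surface (Cd93, Plvap, Gpihbp1, Pecam1, Emcn, Esam and Eng), were followed in sorted cells of the embryonic mouse kidney. The genes were chosen by their symbols in the array's platform annotation, which gave 17 probe sets for the 10 genes, out of 18194 genes and 45101 probe sets measured. Where a group has a pair of values, replicate 1 comes first. The brightest probe set of every one of the 10 genes lay above the array's own control level on all 4 arrays. Wildtype blastocysts had been injected with 3 to 5 embryonic stem cells that carried green fluorescent protein (GFP) and were Tfrc-/-, that is, without a working copy of Tfrc, the gene of transferrin receptor 1, through which cells take up iron. Chimeric kidneys were dissected on embryonic day 15.5, dissociated with collagenase and trypsin, and parted by fluorescence into GFP-positive donor cells, labelled Tfrc-/-, and GFP-negative host cells, labelled wildtype, with 2 arrays for each. The strains, the promoter driving GFP, the number of donor clones and the number of kidneys behind an array are not given in the sources used here. No array held donor-derived cells with an intact Tfrc, so the loss of Tfrc and any other difference between the donor line and the host cannot be told apart.

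Endothelial cells line the blood vessels, and in the kidney they form the glomerular capillaries, the peritubular capillaries and the larger vessels. SoxF factors bind DNA through a high-mobility-group box and act, partly in place of one another, in the specification of arteries and lymphatic vessels. The surface genes serve adhesion at cell contacts (Pecam1, Esam), the diaphragms of fenestrae and caveolae (Plvap), the transport of lipoprotein lipase to the capillary lumen (Gpihbp1), signalling by transforming growth factor-beta and bone morphogenetic proteins (Eng), and the cell coat (Emcn, Cd93).

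The RefSeq promoter table used here, of build GRCm38.p6, held 2 of the 10 genes, Eng and Emcn. Both are shown, and they were not chosen by their values on the arrays. Each run is the 250 bases before the annotated start of the gene, on the plus strand, at chr2:32646345-32646594 for Eng and chr3:137340828-137341077 for Emcn, with matches to 4 short motifs in capitals.
Eng: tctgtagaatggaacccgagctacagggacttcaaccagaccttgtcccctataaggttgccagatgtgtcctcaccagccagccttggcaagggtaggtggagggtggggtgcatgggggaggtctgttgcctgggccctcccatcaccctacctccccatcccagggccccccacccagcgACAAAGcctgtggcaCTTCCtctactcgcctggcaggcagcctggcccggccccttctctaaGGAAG
Emcn: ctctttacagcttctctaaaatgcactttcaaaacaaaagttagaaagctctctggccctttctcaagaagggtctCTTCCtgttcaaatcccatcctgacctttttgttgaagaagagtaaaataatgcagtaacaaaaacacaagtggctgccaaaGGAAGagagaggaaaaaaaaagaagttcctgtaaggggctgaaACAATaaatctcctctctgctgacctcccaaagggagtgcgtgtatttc

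The motifs, searched on both strands, were GGAAG for ETS factors, ACAAT and ACAAAG for SOX factors, and GATAA for GATA factors, and no match overlapped another. Both promoters held 2 copies of GGAAG, beginning 52 and 5 bases before the start in Eng and 174 and 92 bases before it in Emcn. A single ACAAAG stood 67 bases before the start of Eng, and a single ACAAT stood 49 bases before that of Emcn. GATAA matched neither window. Of 32851 mouse promoters cut to the same length, 64.1% held GGAAG, 27.7% ACAAT, 16.5% ACAAAG and 22.6% GATAA, so all of these matches are common and are given as a description of the sequence only.

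All 10 genes had a lower mean log2 intensity in labelled Tfrc-null than in wildtype cells, where 42.4% of all genes did. Both arrays labelled Tfrc-null lay below both wildtype arrays for 7 of the 10, namely Sox7, Sox17, Sox18, Cd93, Plvap, Gpihbp1 and Eng, where 14.3% of all genes did. Without wildtype replicate 1 or labelled Tfrc-null replicate 2, 9 of the 10 had a lower mean. The median log2 difference was -0.97 over the 10 genes, against 0.04 over all genes. No gene passed the test: with limma, 0 of the 10 and 0 of the 18194 genes (0%) had a Benjamini-Hochberg adjusted p under 0.05, while 6 of the 10 and 1459 genes (8.02%) had an unadjusted p under 0.05. Of all genes, 3.98% had such a p and a lower value in labelled Tfrc-null cells. The 10 genes were named with earlier results of these data known, so their counts are descriptions. In bulk samples, fewer endothelial cells and less of these RNAs per endothelial cell cannot be told apart. The labels call the arrays biological replicates without naming animals, so p-values measure only the spread between these arrays, and with 2 arrays against 2 an exact two-sided permutation test cannot go below p = 0.333.

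**Figure D1:**
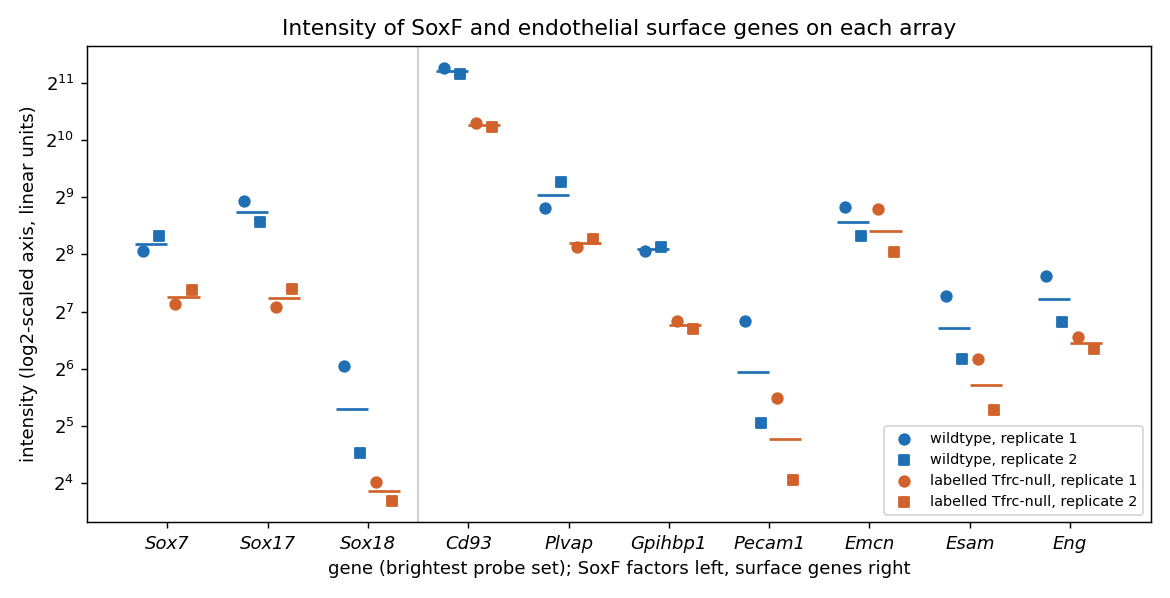
Intensity of the brightest probe set of each of the 10 genes on the 4 arrays (vertical axis, log2-scaled), with wildtype in blue, labelled Tfrc-null in orange, circles for replicate 1, squares for replicate 2 and a line at the mean log2 value of each group. The orange points lie below both blue points for 7 genes, and the groups overlap for Pecam1, Emcn and Esam.

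The label of the donor group was not borne out by Tfrc itself. The brightest Tfrc probe set read 1759 and 2348 in wildtype cells and 2509 and 3175 in donor cells, and 5 of its 6 probe sets had a higher mean there. The groups overlapped for several of these 5, and the exception lay above the control level on no array. The sources used here do not say which part of the gene was altered, so these probe sets may not check the label. The donor cells are for this reason named by their label, on which each direction rests. The arrays had similar median intensities, from 17.5 to 19.3, and the control level, the highest of 27 Bacillus control probe sets, ranged from 7.18 to 9.08. The ratio of 3' to 5' signal of beta-actin was 5.51 (wildtype) and 5.89 (labelled Tfrc-null) for replicate 1 and 6.49 and 7.21 for replicate 2. In both groups this ratio, a sign of lower RNA quality where it is high, was higher for replicate 2. The ratio of Gapdh was 2.61 (wildtype) and 2.44 (labelled Tfrc-null) for replicate 1 and 3.10 and 3.02 for replicate 2. It too was higher for replicate 2 in both groups. Within each replicate number the beta-actin ratio was higher and the Gapdh ratio lower in labelled Tfrc-null cells.

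Among the SoxF factors, Sox17, a regulator of arterial endothelium that also serves in blood stem cells and endoderm, stood at 489.0 and 377.8 in wildtype replicates 1 and 2 and at 135.4 and 168.5 in labelled Tfrc-null replicates 1 and 2. Both wildtype arrays were more than 2-fold above both others. Group means were 433.4 ± 78.6 and 152.0 ± 23.4 (SD, n = 2), a 2.85-fold lower level (log2 difference -1.51, SE 0.23, limma adjusted p = 0.191). With the mean of both its probe sets the log2 difference was -0.84.

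Sox7, which acts early in the formation of endothelium from its precursors, read 265.9 and 319.9 in wildtype cells against 141.0 and 167.1 in labelled Tfrc-null cells. The groups did not overlap, and replicate 2 was the higher array in both. The level was 1.90-fold lower, with means of 154.1 ± 18.5 and 292.9 ± 38.2 (SD, n = 2; log2 difference -0.93, SE 0.21, limma adjusted p = 0.312).

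Sox18, which switches on the lymphatic regulator Prox1 in veins, was dim. It read 65.9 and 23.1 in wildtype cells and 16.1 and 12.9 in labelled Tfrc-null cells. The order of the groups held, but wildtype replicate 1 alone set most of the distance: it differed by -1.44 on the log2 scale (SE 0.51, limma adjusted p = 0.550) with all arrays, -0.68 without wildtype replicate 1 and -2.19 without wildtype replicate 2. Sox17 and Sox18, together with Gpihbp1, were at least 2-fold lower without overlap, where 1.51% of all genes were. The 3 factors had a median log2 difference of -1.44, and the 7 surface genes one of -0.94; a difference between these medians was not tested.

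The surface genes that were tightest between replicates were Gpihbp1 and Cd93. Gpihbp1, which anchors lipoprotein lipase on capillaries, read 267.4 and 279.2 in wildtype cells against 114.6 and 103.4 in labelled Tfrc-null cells. Its groups lay far apart relative to their spread, with means of 273.3 ± 8.41 and 109.0 ± 7.95 (SD, n = 2), a 2.51-fold lower level (log2 difference -1.33, SE 0.18, limma adjusted p = 0.152). That is the smallest adjusted p of the 10 genes.

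Cd93, a lectin-like receptor of endothelium that is also found on myeloid cells, read 2477 and 2285 in wildtype cells and 1270 and 1205 in labelled Tfrc-null cells. The level was 1.92-fold lower (log2 difference -0.94, SE 0.18, limma adjusted p = 0.253), and the gap between groups was wider than that between replicates. Plvap, the protein of fenestral and stomatal diaphragms, read 449.7 and 620.6 against 280.2 and 308.0. Its groups did not overlap either, at 1.80-fold (log2 difference -0.85, SE 0.23, limma adjusted p = 0.418).

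For Eng, Esam, Pecam1 and Emcn array 1 was above array 2 in both groups, as it was for Sox18 and Cd93. Endoglin, the co-receptor encoded by Eng, read 196.5 and 112.6 in wildtype cells and 94.3 and 81.7 in labelled Tfrc-null cells. The groups did not overlap, with a log2 difference of -0.76 (SE 0.31, limma adjusted p = 0.637), which was -0.36 without wildtype replicate 1 and -1.16 without wildtype replicate 2.

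Esam, a junctional adhesion molecule of endothelium and platelets, read 154.2 and 71.75 in wildtype cells and 71.87 and 38.5 in labelled Tfrc-null cells. Wildtype replicate 2 and labelled Tfrc-null replicate 1 were almost level, which is why the groups overlap. On the log2 scale it differed by -1.001 (SE 0.47, limma adjusted p = 0.706), from -0.45 without wildtype replicate 1 (-0.55 if labelled Tfrc-null replicate 2 was left out) to -1.55 without wildtype replicate 2.

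Pecam1, also known as CD31, an adhesion molecule of endothelial junctions, platelets and leukocytes, read 114.0 and 33.1 in wildtype cells and 44.6 and 16.5 in labelled Tfrc-null cells. The 2 arrays numbered 1 were the highest, and the groups overlap. The log2 difference of -1.18 had an SE of 0.73 (limma adjusted p = 0.811) and was -0.29 without wildtype replicate 1 and -2.07 without wildtype replicate 2. Leaving out labelled Tfrc-null replicate 1 gave -1.90, and leaving out its replicate 2 gave -0.46.

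Emcn, the sialomucin of venous and capillary endothelium, read 454.3 and 320.9 in wildtype cells and 443.3 and 262.7 in labelled Tfrc-null cells. The arrays numbered 1 were level and the groups overlapped, with a log2 difference of -0.16 (SE 0.33, limma adjusted p = 0.990). Its sign turned when 1 array was left out, to 0.089 without wildtype replicate 1 and to 0.22 without labelled Tfrc-null replicate 2. Leaving out wildtype replicate 2 gave -0.41, and leaving out labelled Tfrc-null replicate 1 gave -0.54. No difference was therefore seen for Emcn at this replication, which does not show that its level was the same.

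Since the ratios of 3' to 5' signal went with the replicate number, the arrays were also compared within each number. All 10 genes were lower on the array labelled Tfrc-null both between the arrays numbered 1 and between those numbered 2, where 24.4% of all genes were. For the 7 genes whose groups did not overlap this follows from that order. Only Pecam1, Esam and Emcn could have differed here. For Pecam1 the log2 differences were -1.35 and -1.005, for Esam -1.10 and -0.90, and for Cd93 -0.96 and -0.92. Sox18 and Eng were less even, at -2.03 and -0.84 and at -1.06 and -0.46. Emcn stood at -0.035 and -0.29. Array 1 was above array 2 in both groups for 6 of the 10 genes, where 33.8% of all genes showed this order. These were Sox18, Cd93, Pecam1, Emcn, Esam and Eng. Pecam1 was the most marked of them, with array 1 above array 2 by 1.78 on the log2 scale in wildtype and by 1.43 in labelled Tfrc-null cells.

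**Figure D2:**
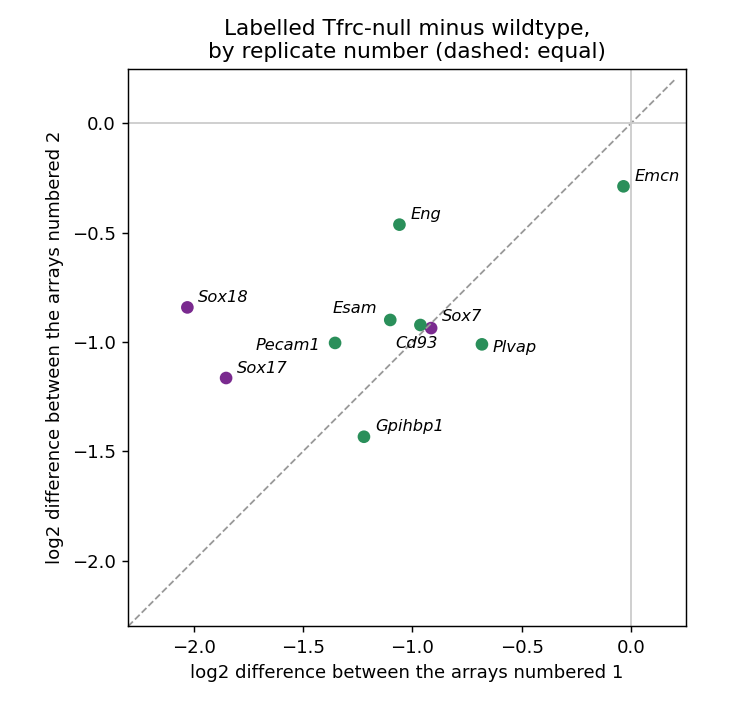
Log2 difference (labelled Tfrc-null minus wildtype) between the arrays numbered 1 (horizontal) and between those numbered 2 (vertical), with a point for each gene, SoxF factors in purple and surface genes in green. All 10 points lie below 0 on both axes, and Sox17, Sox18 and Eng lie furthest from the dashed line of equal differences.

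The other 7 probe sets bore on the difference only in part. Of all 17, 15 had a lower mean in labelled Tfrc-null cells, 14 were brighter than the control level on all 4 arrays, and 2 on none. With limma over all 45101 probe sets, 0 of the 17 had an adjusted p under 0.05 (0% of all), and 7 had an unadjusted p under 0.05, where 7.23% of all did. Cd93 had 5 probe sets. The second brightest read 290.7 and 315.8 in wildtype cells and 129.4 and 119.7 in labelled Tfrc-null cells, without overlap (log2 difference -1.28, SE 0.18, limma adjusted p = 0.201 over all probe sets). The next, with values from 16.9 to 19.7, differed by -0.088, and the remaining 2 were brighter than the control level on 1 array at most. The second Eng probe set read 72.2 and 89.7 in wildtype cells and 66.9 and 74.97 in labelled Tfrc-null cells, so its groups overlapped and it differed by -0.19 (SE 0.21, limma adjusted p = 0.975), against -0.76 for the brighter one.

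The Sox17 value rests on a probe set whose name ends in x_at, the manufacturer's mark for probes that may bind other transcripts too. Its only other probe set was dim, at 10.05 and 14.9 in wildtype cells and 9.20 and 12.7 in labelled Tfrc-null cells, with a log2 difference of -0.18 (SE 0.29, limma adjusted p = 0.997). The second Sox7 probe set did not exceed the control level of any array. With the mean of all probe sets in place of the brightest, the log2 differences were -0.40 for Cd93, -0.51 for Sox7, -0.84 for Sox17 and -0.47 for Eng. The other 6 genes have 1 probe set each.

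**Figure D3:**
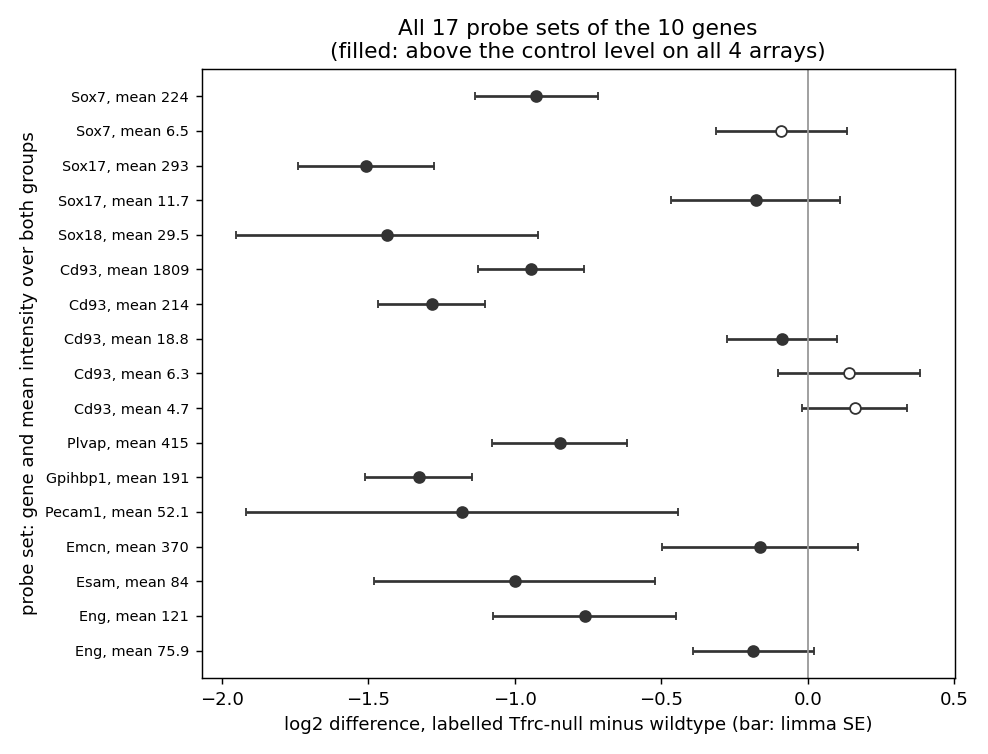
Log2 difference between the groups for each of the 17 probe sets (point) with its limma standard error (bar), labelled by gene and mean intensity. The brightest probe sets of 9 genes lie between -1.51 and -0.76 and that of Emcn at -0.16, while the dimmer second probe sets of Sox7, Sox17 and Eng and 3 of Cd93 lie between -0.19 and 0.16.

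Genes known for endothelium outside these 10 were lower in 18 of 22 cases, where 42.4% of all genes were. Without overlap, 15 were lower and 1 higher, against 14.3% and 20.6% of all genes. The median difference of the 22 was -0.56 (log2), with 0 past the adjusted threshold. The phosphatase gene Ptprb read 225.5 and 264.0 in wildtype cells and 127.4 and 118.3 in labelled Tfrc-null cells, and the cell-surface gene Ecscr 266.3 and 299.4 against 160.5 and 148.5. The growth factor receptor gene Kdr and the apelin receptor gene Aplnr had log2 differences of -0.996 (SE 0.27) and -0.73 (SE 0.21). These 4 genes were named for having the smallest limma p of the list. Another 4 genes of the list had a higher mean in labelled Tfrc-null cells, of which Mmrn1 differed by 0.68 without overlap. The summed intensity of the 22 genes was 6250 and 5446 in wildtype cells and 4544 and 3744 in labelled Tfrc-null cells. All 22 lay above the control level on at least 1 array. Leaving out labelled Tfrc-null replicate 2 gave a median of -0.38, and leaving out its replicate 1 gave -0.73.

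**Figure D4:**
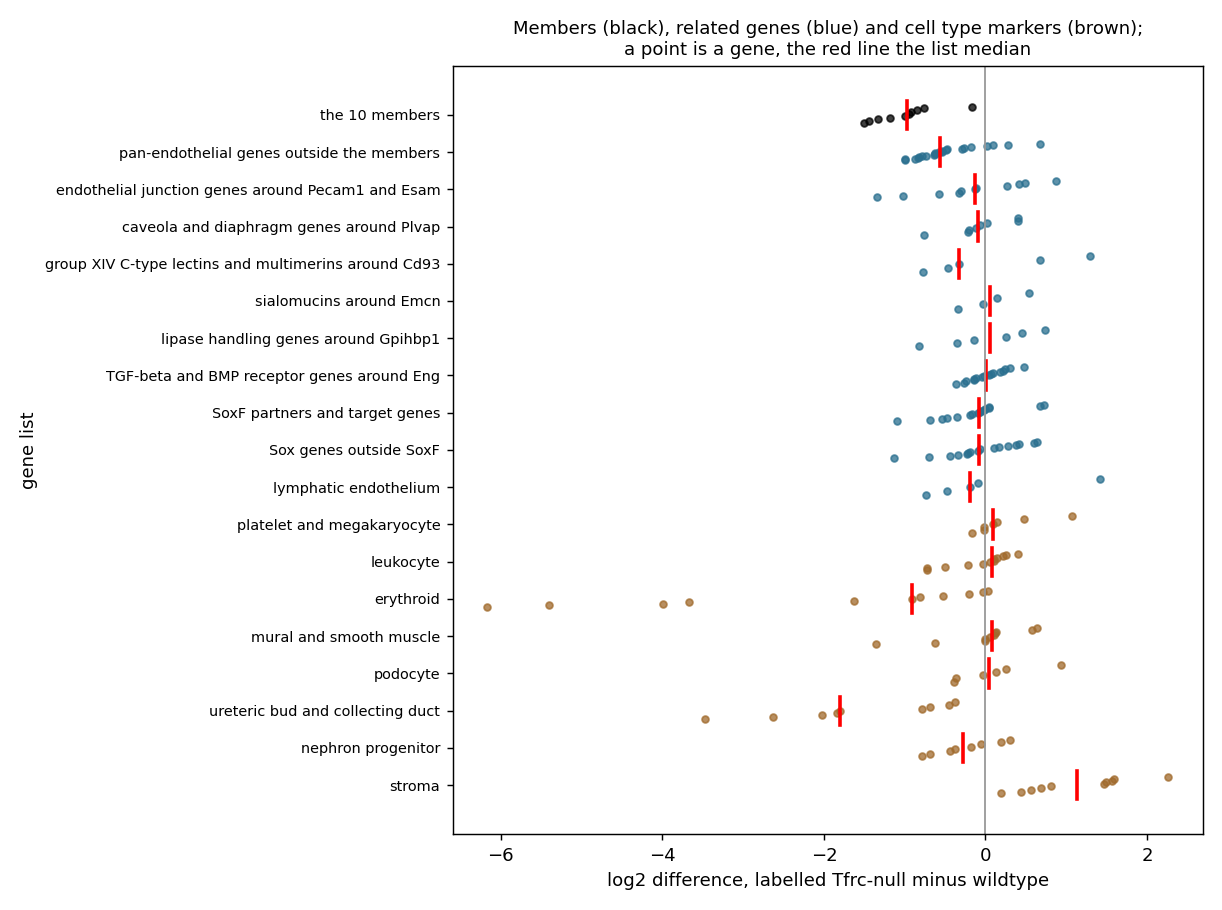
Log2 difference (labelled Tfrc-null minus wildtype) of the 10 members (black), of related genes (blue) and of cell type markers (brown), with a point for each gene and a red line at each list's median. The members' median is -0.97 and that of other endothelial genes -0.56, while the stroma list lies at 1.14 and the ureteric bud list at -1.80.

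The relatives of Cd93 parted by gene. Mmrn2, the extracellular matrix protein that binds Cd93, read 1237 and 1056 in wildtype cells and 638.6 and 701.8 in labelled Tfrc-null cells, a log2 difference of -0.77 (SE 0.20, limma adjusted p = 0.372). The fellow lectins of endothelium Clec14a and Thbd (thrombomodulin) had log2 differences of -0.47 (SE 0.24) and -0.32 (SE 0.21). Cd248, the lectin of this family that marks pericytes and fibroblasts in place of endothelium, read 299.7 and 363.1 against 785.2 and 836.6, a log2 difference of 1.30 (SE 0.20, limma adjusted p = 0.191). Mmrn1, a multimerin stored in platelets and endothelium, was dim and differed by 0.68 (SE 0.24). Without overlap, 14.3% of all genes were lower and 20.6% higher. None of these 5 genes had overlapping groups, with 3 lower and 2 higher. Their median of -0.32 was -0.49 without wildtype replicate 1 and -0.16 without wildtype replicate 2.

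Around Plvap, 5 of 8 genes of caveolae and diaphragms were lower, where 42.4% of all genes were. The list's median of -0.090 turned to 0.070 without wildtype replicate 1 and to 0.022 without labelled Tfrc-null replicate 2. Cav2 read 341.4 and 395.9 in wildtype cells and 200.8 and 236.0 in labelled Tfrc-null cells, while Cav1, the main coat protein of caveolae, differed by -0.21 (SE 0.20). Log2 differences of the coat and adaptor genes Cavin1, Cavin2 and Cavin3 were 0.40, -0.22 and 0.40, and those of Ehd2, Ehd4 and Nrp1 were -0.11, -0.067 and 0.013.

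Around Gpihbp1, the lipase genes Lpl and Lipg differed by -0.14 (SE 0.19) and -0.35 (SE 0.19), and the lipase maturation factor Lmf1 by 0.45 (SE 0.26). Fabp4, a fatty acid carrier of capillary endothelium and fat, read 4015 and 2796 in wildtype cells and 2340 and 1537 in labelled Tfrc-null cells, a log2 difference of -0.82 (SE 0.30, limma adjusted p = 0.580). The lipase inhibitor Angptl4 differed by 0.73 (SE 0.27), and the fatty acid receptor Cd36 by 0.26 (SE 0.29) with overlap. The 6 measured genes had 3 lower and 3 higher, where 42.4% of all genes were lower. Their median of 0.058 turned to -0.057 without wildtype replicate 1 and to -0.13 without labelled Tfrc-null replicate 1. Around Emcn, the sialomucin Cd34 read 684.8 and 646.6 against 529.7 and 518.5, Podxl overlapped at -0.030, Cd164 overlapped at 0.14, and the dim Podxl2 differed by 0.54 (SE 0.27). That list's median was 0.053, but -0.084 without wildtype replicate 2 and -0.13 if labelled Tfrc-null replicate 1 was left out.

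Around Eng, 8 of 16 receptor and pathway genes were lower and 8 higher, where 42.4% of all genes were lower. The list's median was 0.011. That median was -0.034 if wildtype replicate 2 was left out and -0.015 if labelled Tfrc-null replicate 2 was. With dim genes filtered out it was -0.022. The endothelial partner receptor Acvrl1 read 49.2 and 54.9 in wildtype cells and 34.6 and 47.2 in labelled Tfrc-null cells (log2 difference -0.36, SE 0.23). Tgfbr3, the co-receptor betaglycan of mesenchyme, had a difference of 0.48 (SE 0.20). The pathway genes Smad6 and Smad9 had differences of 0.30 and 0.22. The groups overlapped for Smad6, and Smad9 was dim, with values from 9.13 to 11.4. Around Pecam1 and Esam, 7 of 11 junction genes were lower, where 42.4% of all genes were. Without overlap, 5 were lower and 2 higher, against 14.3% and 20.6% of all genes. The list's median of -0.13 was the value of a gene that exceeded the control level on no array. With dim genes filtered out the median was -0.21. It was -0.25 without wildtype replicate 1 and -0.22 without either array numbered 2. The arterial connexin gene Gja4 read 35.2 and 35.7 against 16.5 and 18.3 (log2 difference -1.03, SE 0.18, limma adjusted p = 0.220), F11r, a junction molecule of epithelium as well as endothelium, had a difference of -1.34 (SE 0.30), and VE-cadherin, encoded by Cdh5, one of -0.58 (SE 0.27). Cd99l2, a molecule of leukocyte passage, differed by 0.49 (SE 0.18).

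Of 16 partners and targets of SoxF factors, 12 were lower, where 42.4% of all genes were. Without overlap, 6 were lower and 2 higher, against 14.3% and 20.6% of all genes. The list's median was -0.084, and it was -0.14 and -0.15 without wildtype replicates 1 and 2. The arterial Notch ligand Dll4 read 33.9 on both wildtype arrays and 13.6 and 18.5 in labelled Tfrc-null cells (log2 difference -1.09, SE 0.22, limma adjusted p = 0.286). Efnb2, an arterial ephrin that nephron cells express too, read 836.4 and 1063 against 592.1 and 581.5. Vcam1 and Rspo3, which stromal cells also express, differed the other way, by 0.67 (SE 0.20) and 0.72 (SE 0.22).

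Markers of other cell types also differed in level between the groups, and their part in these differences was not tested. For all counts of markers given below, the share of all genes with a lower mean was 42.4%. Stroma markers were higher in 10 of 10 cases (median 1.14), with a summed intensity of 14521 and 10708 in wildtype cells and 20455 and 17627 in labelled Tfrc-null cells. Markers of ureteric bud and collecting duct were lower in 9 of 9 (median -1.80), from sums of 7098 and 7562 to 2807 and 3535. Erythroid markers were lower in 10 of 11 (median -0.91), from 1669 and 4473 to 279.0 and 311.8. The markers with the smallest p in these lists were Dlk1, Lum, Tbx18 and Postn for stroma (log2 differences of 2.26, 1.49, 1.46 and 1.59), Ret, Gata3, Elf5 and Calb1 for the bud (-3.47, -1.80, -1.84 and -2.02), and Alas2, Slc4a1, Hbb-y and Hba-x for red cells (-5.40, -3.99, -6.17 and -3.67). With limma, 0 genes of these lists passed the adjusted threshold.

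Platelets and leukocytes carry Pecam1, and their markers lay on both sides of 0. Platelet markers were lower in 3 of 7 genes (median 0.098), with sums of 475.0 and 547.5 on wildtype and 998.1 and 914.5 on labelled Tfrc-null arrays, the higher sum being mostly Pf4 (367.8 and 427.2 against 876.2 and 784.5). Gp1bb, Gp9 and Gp6 had log2 differences of 0.47, -0.17 and 0.14, and Gp6 was above the control level on 1 array. Leukocyte markers were lower in 5 of 12 (median 0.076), with sums of 5214 and 6071 against 5767 and 5551. Among them Ptprc, Lyz2 and Cd52 had log2 differences of -0.73, -0.72 and -0.50, and Cd68 one of 0.41.

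Mural cells, which wrap the endothelium, had 3 of 10 markers lower (median 0.084) and sums of 6004 and 5032 against 5270 and 4876. The pericyte gene Rgs5 read 1207 and 749.6 in wildtype cells and 402.4 and 342.5 in labelled Tfrc-null cells (log2 difference -1.36, SE 0.29, limma adjusted p = 0.296), while Myh11, Des and Kcnj8 differed by -0.63, 0.63 and 0.58. Podocyte markers were lower in 3 of 6 (median 0.049), with Nphs1, Npnt, Wt1 and Synpo at 0.93, -0.36, -0.39 and 0.26. Nephron progenitor markers were lower in 6 of 8 (median -0.28), with Spock2, Cited1, Six2 and Meox1 at -0.69, -0.79, -0.38 and -0.44. Their sums were 3604 and 3608 against 3520 and 3010 for podocytes, and 2411 and 2792 against 2195 and 1829 for progenitors.

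Over the 4 arrays, the mean centred profile of the 10 genes was 0.77 and 0.23 on wildtype replicates 1 and 2 and -0.35 and -0.66 on labelled Tfrc-null replicates 1 and 2, in log2 units. Of 13562 other genes above the control level on all 4 arrays, the 6 nearest to it by Euclidean distance were Frrs1, Gimap4, Plcxd2, Coro2a, Cyp26b1 and Ceacam1, at distances of 0.06 to 0.12. Frrs1, a ferric-chelate reductase-related gene, read 558.5 and 390.4 in wildtype cells and 261.7 and 199.2 in labelled Tfrc-null cells. Cyp26b1, which degrades retinoic acid, read 86.3 and 55.6 against 40.7 and 30.9. With 4 arrays such likeness is a description only.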

How the data were processed

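Per the series design text and the labels' protocols, total RNA (50 ng) was amplified, biotin-labelled and hybridised to Affymetrix Mouse Genome 430 2.0 arrays. The values deposited by the authors are intensities on a linear scale, and per the submitters' processing notes they were made with RMA; its version and settings are not given in the sources used here. Log2 was taken of the deposited intensities, with no further normalization. Of the probe sets, 34958 carried 1 gene symbol, 932 several and 9211 none. Symbols were updated by Entrez identifier from a RefSeq table (GRCm38.p6), which held 18033 of 18194 genes. Each gene took its probe set with the highest mean. The test of each difference (labelled Tfrc-null minus wildtype) was that of limma 3.58.1, run in R 4.3.3 over all genes, and probe sets in a separate fit over all probe sets, with Benjamini-Hochberg adjustment, a threshold of 0.05 and no filter or block. The scripts were tested on simulated data. The members and lists were chosen with earlier results of these data known; the promoter motifs were added after the arrays' values were known. Named genes are all members, all genes of the lists around Cd93, Emcn, Plvap and Gpihbp1, up to 4 of each other list by p, Tfrc, and the 6 most similar profiles. Alternatives were a replicate block, the mean of probe sets, quantile normalization, an offset of 16, a filter on dim genes (above control on at least 2 arrays), a fit of all probe sets, and leaving out each array. The number of arrays limits the precision.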

Additional observations from a re-analysis of the deposited data

How the results depend on the processing

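In every alternative that kept all 4 arrays, 10 members had a lower mean, 7 had no overlap and 0 passed the adjusted threshold. The members' median ranged from -0.99 to -0.85 in these. Without single arrays the count with a lower mean ranged from 9 to 10 and that without overlap from 7 to 10. Leaving out an array cannot make separate groups overlap, so the latter count could not fall below 7 and shows nothing about stability. The median then ranged from -1.23 to -0.78. With a replicate block, limma called 2 genes of 18194 in place of 0, neither of them a member, and the smallest adjusted p of a member was 0.114; with the mean of all probe sets it called 1. The replicate numbers may or may not pair the samples (deviations of same-numbered arrays correlated at 0.51 over genes, with only 2 pairs), and the block changed no member's call. Of the members' own differences only that of Emcn turned, ranging from -0.54 to 0.22 without single arrays. The median of SoxF partners and targets was -0.100 with the mean of probe sets, -0.107 with quantile normalization and -0.0969 with the dim filter, and from -0.15 to -0.077 without single arrays. That of other Sox genes was -0.033 with the mean of probe sets and -0.19 to 0.037 without single arrays. Without single arrays the other list medians ranged from -0.73 to -0.38 (pan-endothelial), -0.25 to -0.18 (junction), -0.16 to 0.070 (caveola), -0.49 to -0.16 (around Cd93), -0.13 to 0.23 (sialomucin), -0.13 to 0.17 (lipase), -0.034 to 0.15 (around Eng) and -0.64 to -0.041 (lymphatic). The cause of these shifts was not tested. Of the 17 probe sets, 3 were not above the control level on all 4 arrays.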

Other observations

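Genes of lymphatic endothelium, a vessel type in which SoxF factors also act, did not lie on one side of 0. Flt4, the receptor of lymphatic growth factors, read 263.0 and 324.2 in wildtype cells and 171.7 and 180.4 in labelled Tfrc-null cells (log2 difference -0.73, SE 0.20, limma adjusted p = 0.421), and Prox1, the lymphatic regulator downstream of Sox18, read 29.6 and 37.0 against 26.3 and 21.5. Lyve1, a hyaluronan receptor of lymphatic vessels and of tissue macrophages, stood the other way, at 37.0 and 31.1 against 125.0 and 65.5 (log2 difference 1.42, SE 0.35, limma adjusted p = 0.354), and Pdpn overlapped at -0.20. Of the 5 measured genes 4 were lower, with a median of -0.20 that was -0.64 without wildtype replicate 1, -0.33 without labelled Tfrc-null replicate 2 and -0.041 when its replicate 1 was left out.

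Sox genes outside the SoxF group were lower in 9 of 16 cases, where 42.4% of all genes were. Without overlap, 4 were lower and 1 higher, against 14.3% and 20.6% of all genes. Of those 4, 1 was above the control level on 1 array only, and 2 of the 16 genes were above it on none. The list's median of -0.083 was -0.097 with dim genes filtered out. It was 0.037 without wildtype replicate 2 and -0.19 without wildtype replicate 1. Sox13 read 155.2 and 67.8 in wildtype cells and 54.4 and 40.5 in labelled Tfrc-null cells (log2 difference -1.13, SE 0.43), and Sox9, a gene of ureteric tips and forming nephrons, 861.2 and 690.3 against 399.9 and 565.8 (-0.70, SE 0.25). Sox12 and Sox6 had log2 differences of 0.42 and -0.45. None of these passed the adjusted threshold.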
